A study of Homo sapiens with 6 samples.

Results

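The 10 genes described here were the NOD-like receptors and the core of the inflammasome: *NOD1*, *NOD2*, *NLRP1*, *NLRP3*, *NLRC5* and *NLRX1* as receptors, *RIPK2* and *PYCARD* as adaptors, and *CASP1* and *CASP4* as caspases. They were taken by symbol from a count table of 20381 genes, a rule that used no measured value, and each matched 1 row. The libraries came from HCCLM3, a human hepatocellular carcinoma cell line with high metastatic capacity, and poly(A) RNA was sequenced. In the PON1-OE group (n = 3), labelled as stable overexpression, cells carried *PON1* (paraoxonase 1, a serum esterase made by the liver) from a lentivirus with its coding sequence. In the NC group (n = 3), cells received the empty lentiviral vector. The study's methods describe stable lines selected with puromycin, whereas the design text gives lysis 24 h after transfection, so the time since transduction is not settled. No inflammatory stimulus is named for either group. Whether the 3 libraries of a group came from separate cultures is not stated, so p-values measure only the spread between these libraries, which may be technical.

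NOD-like receptors are cytosolic sensors of microbial products and cell damage. NOD1 and NOD2 bind peptidoglycan fragments and recruit the kinase RIPK2, which activates NF-kB through ubiquitin-dependent complexes. Inflammasome sensors such as NLRP1 and NLRP3 instead recruit PYCARD (the ASC adaptor), which gathers CASP1 so that it can mature IL-1beta and IL-18 and cleave gasdermin D, while CASP4 binds bacterial lipopolysaccharide directly. NLRC5 drives transcription of MHC class I genes, and NLRX1 sits at mitochondria and dampens antiviral signaling. The comparison asked whether transcripts of these genes differed when *PON1* was overexpressed.

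The 6 libraries held between 15706672 and 17948383 counts. *PON1* had 0, 2 and 3 counts in the NC libraries and 155, 181 and 167 in the PON1-OE libraries, so the groups were separate as labelled (log2FC 6.65, SE 0.319, edgeR adjusted p = 2.99e-11). The labels call the cells hepatocytes. Of 12 hepatocyte markers, 8 passed the filter on low counts and 2 were at or under the floor of 3 counts in every library (*TTR* and *SERPINA1*). Albumin, the defining product of hepatocytes, was near background (*ALB*, 0.25 to 0.762 CPM, counts scaled to a common library size). The hepatocyte list summed to between 3775 and 4275 CPM in NC and between 3928 and 4162 in PON1-OE, nearly all of it the keratins *KRT8* and *KRT18*, which epithelial cells in general express. The hepatocyte transcription factor *HNF4A* was present (72.5 to 82.5 CPM). Of 12 myeloid and leukocyte markers, 7 were at or under the floor, and *PTPRC*, *AIF1*, *TYROBP* and *LST1* had no count in any library. The summed level of this list, nearly all of it *CD68*, a lysosomal protein gene that is not confined to leukocytes, was 212 to 232 CPM in NC and 231 to 254 in PON1-OE. Of 8 fibroblast and endothelial markers, 2 passed the filter (*DCN* and *PECAM1*), and the list summed to 17.5 to 18.5 CPM in NC and 18.6 to 23.1 in PON1-OE. The part of these marker differences in the results below was not tested. In bulk RNA, a different number of cells of a type and a different amount of RNA per cell cannot be told apart.

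Promoters of 2 receptors are shown first, *NOD1* with counts in every library and *NLRP3* with none. *NOD1* was not the best detected receptor. Per kilobase of exon it stood at 0.922 CPM, below *NLRX1* (4.46) and *NLRC5* (1.5), and these and *NLRP1* also had counts in every library. Each run is the 250 bases before the RefSeq gene start (GRCh38.p14), read on the gene's strand, with CpG dinucleotides in capitals. The first lies at chr7:30478785-30479034 on the minus strand and the second at chr1:247415923-247416172 on the plus strand.
NOD1: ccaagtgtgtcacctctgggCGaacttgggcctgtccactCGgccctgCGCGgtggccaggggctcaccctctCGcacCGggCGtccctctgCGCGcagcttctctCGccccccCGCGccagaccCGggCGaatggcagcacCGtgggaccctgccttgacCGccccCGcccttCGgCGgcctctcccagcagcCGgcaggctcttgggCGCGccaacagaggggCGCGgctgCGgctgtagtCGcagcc
NLRP3: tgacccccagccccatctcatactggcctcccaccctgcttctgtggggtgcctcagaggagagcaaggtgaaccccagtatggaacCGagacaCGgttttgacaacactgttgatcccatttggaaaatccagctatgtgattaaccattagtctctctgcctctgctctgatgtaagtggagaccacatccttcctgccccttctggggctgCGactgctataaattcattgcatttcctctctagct
The *NOD1* window held 26 CpG and the *NLRP3* window 3, against a median of 11 over 35116 promoters of that length. Among those promoters, 80.4% had fewer CpG than *NOD1* and 22.9% had fewer than *NLRP3*. RefSeq entries were matched for 6 of the 10 genes (not *NLRP1*, *NLRC5*, *CASP1* or *RIPK2*). The remaining windows held 16 CpG in *PYCARD*, 5 in *NLRX1*, 2 in *CASP4*, and 4 and 5 at the 2 listed starts of *NOD2*. *CASP4* and *NLRX1*, with few CpG in these windows, had counts in every library. The windows of *CASP4*, *NLRX1*, *PYCARD* and *NOD2* lie inside the annotated span of the gene (GENCODE v29), so starts further upstream were not covered. Whether CpG content follows detection was not tested.

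In these HCCLM3 cells, 7 of the 10 genes were expressed, in the sense that they passed the edgeR filter on low counts (about 10 counts in at least 3 libraries): *NOD1*, *NLRC5*, *NLRX1*, *RIPK2*, *PYCARD*, *CASP1* and *CASP4*. *NLRP1* was detected but did not pass. *NOD2* and *NLRP3* did not exceed 3 counts in any library, a floor that corresponds to between 0.166 and 0.192 CPM and covers counting error only. *NLRP3*, the sensor of the best known inflammasome, had 0 counts in all 6 libraries, which allows a level of up to 0.0349 to 0.0403 CPM per kilobase of exon, depending on the library. *NOD2* had 2, 0 and 0 counts in NC and 1, 0 and 0 in PON1-OE, both at or under the floor, so no fold is given.

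Levels of different genes were compared as CPM per kilobase of exon, averaged over the 6 libraries. *RIPK2* stood highest at 40.0 (36.9 to 42.1), above 92.0% of the 15405 genes with a count and a known length. *PYCARD* followed at 24.5 (21.4 to 26.9). *CASP4* at 4.58 (3.98 to 5.29) and *NLRX1* at 4.46 (4.27 to 4.68) overlapped in range and could not be ordered. *NLRC5* stood at 1.5 (1.38 to 1.69). *NOD1* at 0.922 (0.761 to 1.15) and *CASP1* at 0.643 (0.406 to 0.95) overlapped. *NLRP1* reached only 0.0136 (0.00488 to 0.0345), a range that overlapped that of *NOD2*. The adaptors were therefore the most abundant of these transcripts per length and the receptors and *CASP1* lay well below them. Dividing by the longest coding transcript, an alternative added after seeing the data, left the order of the 10 genes unchanged and placed *CASP4* at 15.4 and *NLRX1* at 5.8.

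**Figure D1:**
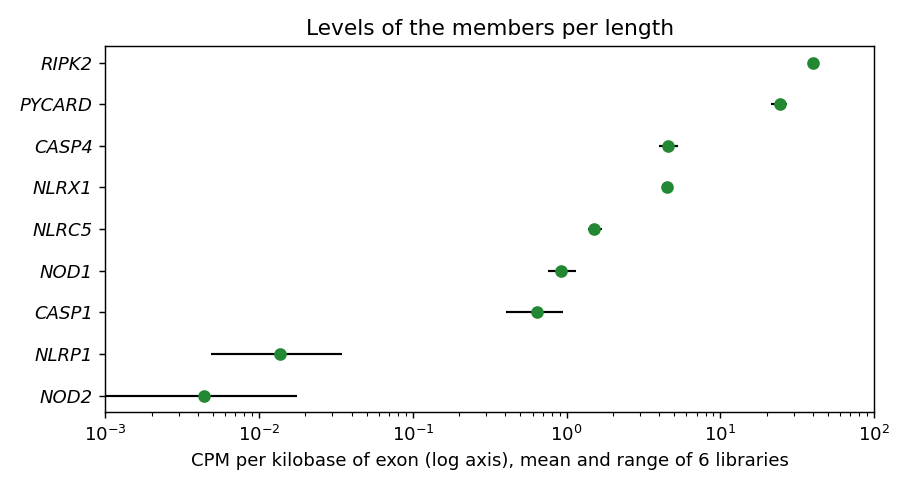
Mean level of 9 of the 10 genes in CPM per kilobase of exon on a log axis, with lines from the lowest to the highest of the 6 libraries (the *NOD2* line runs to the left edge because some libraries had 0 counts, and *NLRP3*, at 0 throughout, is not drawn). *RIPK2* at 40.0 and *PYCARD* at 24.5 stand apart from the receptors, and *NLRP1* and *NOD2* lie below 0.1.

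Ratios within a library put the partners of a complex side by side on the per-kilobase scale. *RIPK2* exceeded *NOD1*, the receptor it serves, by a median of 44.5 times (32.0 to 53.9). *PYCARD* exceeded *CASP1*, the protease it recruits, by 38.0 times (27.0 to 66.3). *CASP4* exceeded *CASP1* by 6.66 times (5.57 to 11.8). These ranges cover the spread between libraries only, and the ratios depend on the length used. Per kilobase of the longest coding transcript, *RIPK2* stood at 48.2 and *NOD1* at 1.4. On that scale *PYCARD* stood at 35.7, *CASP4* at 15.4 and *CASP1* at 1.19, which widens the gap between the 2 caspases. None of the 3 ratios separated the groups, with two-sided exact permutation p of 0.3, 1.0 and 0.9 respectively, where 3 libraries against 3 allow no value under 0.1.

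In PON1-OE against NC, *RIPK2* and *PYCARD* lay slightly higher, and the receptors and both caspases were not separated between groups. None of the 7 genes tested passed an adjusted p of 0.05 in edgeR or limma-voom, nor in DESeq2, which gave an adjusted p for only 1 of them (*RIPK2*), where edgeR called 0.677% of the 11958 genes tested (81 genes). With the added fold threshold of the study's methods (a change of over 1.5-fold in either direction), edgeR called 0.0502% of all genes (6) and none of the 7. At an unadjusted p under 0.05, 2 of the 7 were called by edgeR (*RIPK2* and *PYCARD*, both higher), where the background was 11.1% of all genes with 5.91% higher and 5.17% lower. The same 2 genes were the ones whose groups did not overlap, against 16.1% of all genes, 8.32% with PON1-OE higher and 7.74% with PON1-OE lower. DESeq2, fitted without the filter on low counts, counted 1 at that threshold (*RIPK2*, background 5.51% of 15542 genes). With the filter, limma-voom counted 2 (background 10.9% of 11958 genes), so the DESeq2 background is over a different set of genes. Of the 7 log2FC values, 6 were positive and 1 negative, with a median of 0.12, beside -0.0025 over all genes tested.

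**Figure D2:**
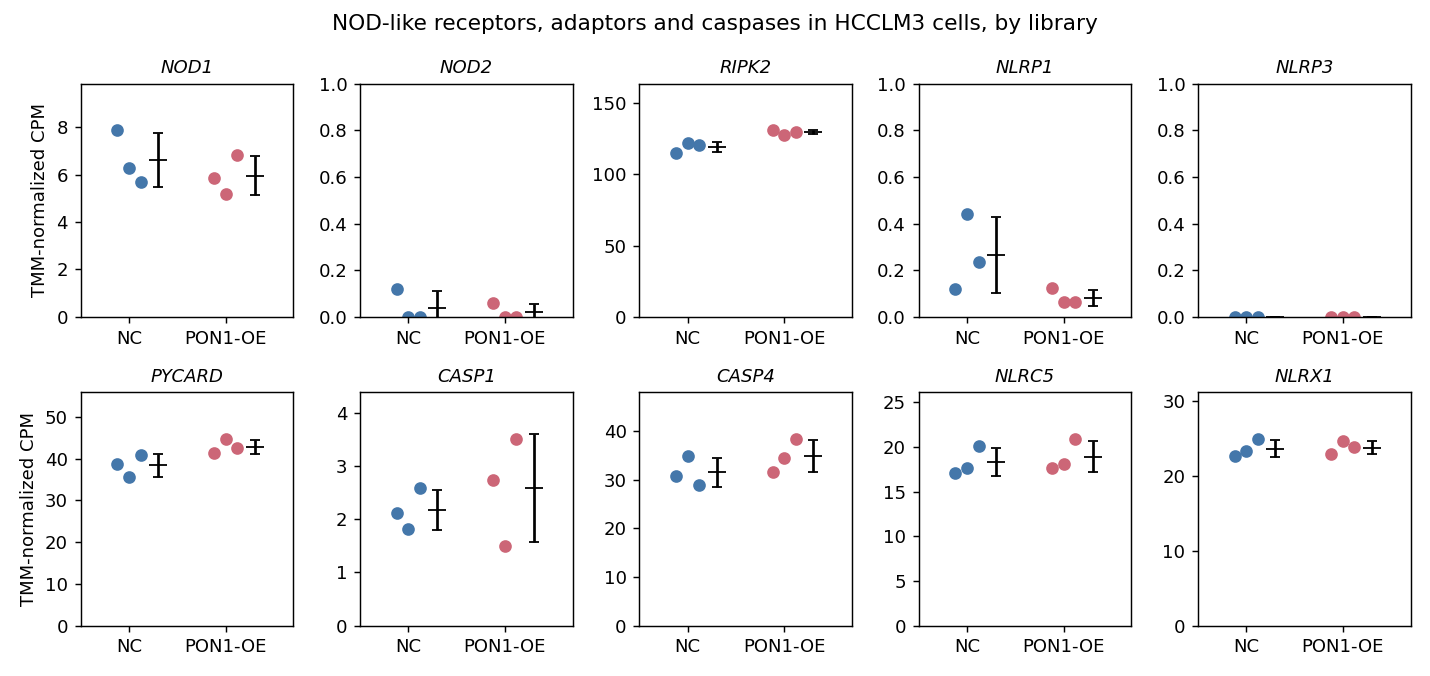
Normalized CPM of each of the 10 genes in the 3 NC libraries (blue) and the 3 PON1-OE libraries (red), with bars for the mean and SD of each group and axes that start at 0. The points of *RIPK2* and *PYCARD* do not overlap between groups, those of the other expressed genes do, and *NOD2*, *NLRP1* and *NLRP3* stay below 0.5 CPM.

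*NOD1* (chr7:30424527-30478784, minus strand, GRCh38 throughout) measured 7.87, 6.3 and 5.69 CPM in NC and 5.85, 5.19 and 6.83 in PON1-OE. The PON1-OE values fell inside or just below the NC range, and the first NC library was the highest of the 6. The means were 6.62 ± 1.13 and 5.96 ± 0.826 CPM (SD, n = 3 each). The log2FC was -0.15 (SE 0.158, 95% interval -0.48 to 0.18, adjusted p = 0.796), and leaving out a library moved it between -0.011 (without NC replicate 1) and -0.26 (without PON1-OE replicate 3). It was -0.061 without PON1-OE replicate 2 and -0.25 without NC replicate 3. *NOD1* was the only one of the 7 with a negative log2FC. Its exons overlap 741 bases of an antisense transcript, *AC006027.1*, and counting is not stated to use strand, so reads of the 2 could not be told apart.

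*RIPK2* (chr8:89757747-89791063, plus strand) measured 115, 122 and 121 CPM in NC and 131, 128 and 130.1 in PON1-OE. All 3 PON1-OE libraries lay above all 3 NC libraries. The means were 119 ± 3.81 and 129.7 ± 1.69 CPM (SD, n = 3 each), a fold of 1.09 (95% interval 1.02 to 1.16). The difference had a log2FC of 0.12 (SE 0.0437), an unadjusted p of 0.0127 and an adjusted p of 0.283 in edgeR. Without NC replicate 1, the lowest library, the log2FC was 0.093 and the unadjusted p was 0.0811.

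*NLRP1* (chr17:5499427-5619424, minus strand) had 2, 8 and 4 counts in NC and 2, 1 and 1 in PON1-OE. The groups shared a library at 2 counts, and NC replicate 2 held most of the NC total. Summed over libraries and scaled for depth, 4 counts against 14 gave a ratio of 0.307 with a 95% interval of 0.0736 to 0.977 for counting error only. Fitted without the filter and with the spread between libraries, the log2FC was -1.61 (SE 0.985, 95% interval -3.57 to 0.34, adjusted p = 0.638), and -1.03 without NC replicate 2. Its unadjusted p was 0.105, where 9.95% of all genes fitted without the filter had one under 0.05, so a difference in *NLRP1* was not shown at this depth.

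*PYCARD* (chr16:31201485-31203450, minus strand) measured 38.7, 35.5 and 40.9 CPM in NC and 41.4, 44.7 and 42.6 in PON1-OE. All PON1-OE libraries lay above all NC libraries, by a narrow margin between 40.9 and 41.4. The means were 38.4 ± 2.73 and 42.9 ± 1.67 CPM (SD, n = 3 each), a fold of 1.12 (95% interval 1.01 to 1.24). The log2FC was 0.16 (SE 0.0686), with an unadjusted p of 0.028 and an adjusted p of 0.38 in edgeR. The unadjusted p was 0.15 without NC replicate 2, 0.0862 without PON1-OE replicate 2 and 0.0555 in DESeq2. The antisense gene *PYCARD-AS1* overlaps 991 of the 1661 exon bases of *PYCARD* and is subject to the same limit on strand.

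*CASP4* (chr11:104942866-104969436, minus strand) measured 30.8, 34.9 and 28.9 CPM in NC and 31.7, 34.6 and 38.4 in PON1-OE. The groups overlapped, and the highest value belonged to PON1-OE replicate 3. The means were 31.5 ± 3.08 and 34.9 ± 3.33 CPM (SD, n = 3 each), with a log2FC of 0.15 (SE 0.0828, 95% interval -0.027 to 0.32, adjusted p = 0.552). Leaving out a library moved the log2FC between 0.073 (without PON1-OE replicate 3) and 0.23 (without NC replicate 2), by over 1.5 times in either direction.

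*CASP1* (chr11:105025443-105035250, minus strand) had 35, 33 and 44 counts in NC and 45, 24 and 55 in PON1-OE, or 2.12, 1.82 and 2.58 CPM against 2.74, 1.5 and 3.51. PON1-OE replicate 2 was the lowest of all 6 libraries and PON1-OE replicate 3 the highest. The log2FC was 0.25 (SE 0.28, 95% interval -0.33 to 0.83, adjusted p = 0.817). A single library set its sign, since it was -0.031 when PON1-OE replicate 3 was left out, and 0.52 when the second library of that group was. The coefficient of variation was 17.5% in NC and 39.2% in PON1-OE, against 15.9% from Poisson counting alone.

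With antisense genes left aside, *CASP1* was also the member that shared most sequence with another gene. Of the 4123 distinct 50-base words in its transcripts (GENCODE v29), 180 (4.37%) also occurred in *CARD16*, a neighbouring gene that encodes little more than a CASP1-like caspase recruitment domain. No other member shared more than 0.941% of its words with other genes. Transcripts were compared in their own orientation, so the antisense overlaps of *NOD1* and *PYCARD* are not in these shares. The longest run common to *CASP1* and *CARD16* was 144 bases, all coding, within 1 exon at chr11:105034229-105034372 on the minus strand.
CASP1: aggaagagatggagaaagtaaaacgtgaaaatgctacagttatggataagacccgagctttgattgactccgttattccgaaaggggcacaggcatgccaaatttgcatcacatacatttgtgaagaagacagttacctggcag
*CARD16* itself measured 3.51, 4.98 and 3.34 CPM in NC and 3.9, 5.88 and 5.43 in PON1-OE (log2FC 0.35, SE 0.197, adjusted p = 0.533). In the second library of PON1-OE, *CASP1* was at its lowest and *CARD16* at its highest. Counting both genes as 1 gave 93, 123 and 101 counts in NC and 109, 118 and 140 in PON1-OE, and means of 6.12 ± 0.608 and 7.65 ± 1.17 CPM (SD, n = 3 each). The log2FC of the sum was 0.32 (SE 0.146, 95% interval 0.013 to 0.62, unadjusted p = 0.0415, adjusted p = 0.428 in edgeR). The sum was added after seeing the data. *CARD18*, the other neighbour of this family in the count table, lay at 0.626 ± 0.26 and 0.815 ± 0.356 CPM (SD, n = 3 each; log2FC 0.38, adjusted p = 0.826).

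**Figure D3:**
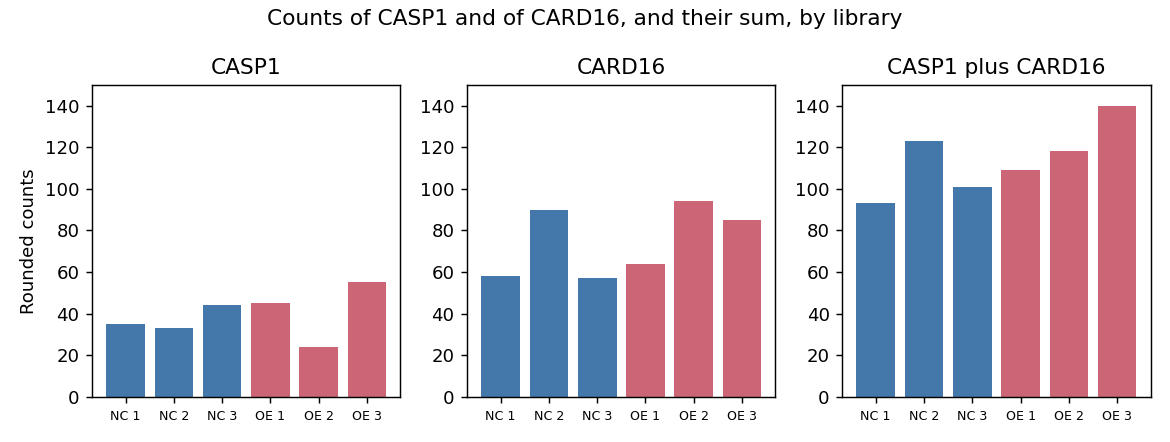
Rounded counts of *CASP1*, of *CARD16* and of their sum in each library, NC in blue and PON1-OE in red, with bars from 0. The second PON1-OE library has 24 *CASP1* counts and 94 *CARD16* counts, and the summed counts range from 93 to 140.

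*NLRC5* (chr16:56989485-57083531, plus strand) measured 17.1, 17.7 and 20.1 CPM in NC and 17.7, 18.1 and 20.9 in PON1-OE, nearly the same spread in both groups. The log2FC was 0.047 (SE 0.0951, 95% interval -0.15 to 0.24, adjusted p = 0.905), and it was -0.032 without PON1-OE replicate 3. *NLRX1* (chr11:119166568-119184016, plus strand) measured 22.7, 23.3 and 24.9 CPM in NC and 22.9, 24.6 and 23.8 in PON1-OE. The log2FC of 0.0075 (SE 0.0782, 95% interval -0.16 to 0.17, adjusted p = 0.983) was the closest to 0 of the 7, and its sign turned when NC replicate 1, NC replicate 2 or PON1-OE replicate 2 was left out. The intervals bounded the fold between 0.901 and 1.18 for *NLRC5* and between 0.898 and 1.13 for *NLRX1*.

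Counting error and the spread between libraries together limited how small a difference could be seen. Poisson counting alone would give a coefficient of variation of 2.2% for *RIPK2*, and the observed values were 3.19% in NC and 1.3% in PON1-OE. For *NLRX1*, counting gave 5.04% and the libraries 4.83% and 3.67%. *CASP4* varied more than counting, at 9.76% and 9.54% against 4.26%. For *RIPK2*, *PYCARD*, *CASP4*, *NLRC5*, *NLRX1* and *NOD1*, the 95% interval excluded a change past the 1.5-fold threshold in either direction. The interval of *CASP1* reached past it on the higher side.

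**Figure D4:**
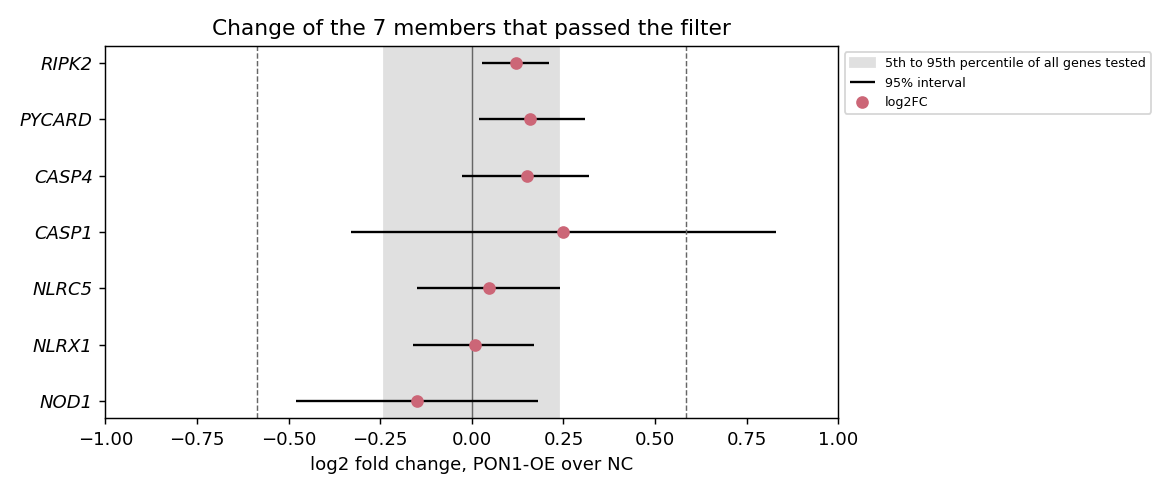
Log2 fold change of PON1-OE over NC with its 95% interval for the 7 expressed genes, a grey band from the 5th to the 95th percentile of all genes tested (-0.24 to 0.24) and dashed lines at a 1.5-fold change. All 7 points except *CASP1* at 0.25 fall inside the band, and the *CASP1* interval is the widest.

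The genes around these members were read from 6 lists of 102 genes, of which 101 were in the count table and 73 were tested. At an unadjusted p under 0.05, 9 of the 73 (12.3%) were called, 3 higher and 6 lower, beside 11.1% of all genes, and 1 passed an adjusted p of 0.05. The median log2FC over the 73 was -0.01.

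Of 29 genes that act with NOD1, NOD2 and RIPK2 (ubiquitin ligases, deubiquitinases, kinases and NF-kB subunits), all 29 were tested, 14 had a positive and 15 a negative log2FC, and the median was -0.014. None passed the adjusted threshold, and 2 met the unadjusted one in edgeR and limma-voom and 1 in DESeq2. DESeq2 gave an adjusted p for 14 of the 29. The highest levels per kilobase belonged to *RBCK1*, a subunit of the linear ubiquitin ligase (79.6), *IKBKG*, the NEMO scaffold (74.6), *NFKBIB* (38.2) and *RELA* (30.8), so transcripts for these steps downstream of RIPK2 were present. *IKBKG* has a near-identical partial copy, so its count is uncertain. The unadjusted threshold was met by *NFKBIB*, an inhibitor of NF-kB, at 92.6 ± 2.66 and 84.8 ± 4.5 CPM (SD, n = 3 each; log2FC -0.13, adjusted p = 0.352). It was also met by *BIRC3*, the ubiquitin ligase cIAP2, at 20.6 ± 1.75 and 17.6 ± 2.46 CPM (SD, n = 3 each; log2FC -0.23, adjusted p = 0.409). Both genes overlapped between groups. For *BIRC3*, the edgeR unadjusted p was 0.0521 with the replicate block and 0.184 without PON1-OE replicate 2. Its log2FC was -0.14 without that library, and -0.34 without PON1-OE replicate 1. Leaving out a library moved *NFKBIB* between -0.1 and -0.17, with an unadjusted p of up to 0.0986.

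Of 11 genes that move, trim or relay peptidoglycan fragments, 6 were tested. *ARHGEF2*, a microtubule-bound exchange factor for RhoA linked to NOD signaling, rose and was the only list gene past the adjusted threshold. It measured 225, 216 and 229.7 CPM in NC and 268, 244 and 268 in PON1-OE, so every PON1-OE library lay above every NC library. The log2FC was 0.22 (SE 0.0428, adjusted p = 0.0187), a fold of 1.16. The call was lost when any of 5 of the 6 libraries was left out. Leaving out NC replicate 1, 2 or 3 raised the adjusted p to 0.0823, 0.0553 or 0.0886. Dropping the first or the third PON1-OE library raised it to 0.0755 or 0.139, whereas dropping the second kept it under 0.05. The lowest adjusted p among the 13 alternatives was 0.000321. *SLC15A3*, an endolysosomal peptide transporter, lay at 5.23 ± 1.07 and 3.88 ± 0.967 CPM (SD, n = 3 each; log2FC -0.43, unadjusted p = 0.0429, adjusted p = 0.433). Its log2FC was -0.27 without NC replicate 3, -0.28 without PON1-OE replicate 2 and -0.63 when the third library of that group was left out. The edgeR unadjusted p was 0.24 and 0.2 in the first and second of these fits. The other highly expressed genes of this list were *NAGK*, *ATG16L1* and *SLC15A4*, from 12.6 down to 5.53 CPM per kilobase, and none of them met the unadjusted threshold.

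Among inflammasome sensors and regulators, 26 of 27 genes were in the count table, 17 were tested and 8 were at or under the floor. At the unadjusted threshold, 4 (23.5%) were called in edgeR, DESeq2 and limma-voom alike, 2 higher and 2 lower in edgeR. The background was 11.1%, 5.51% and 10.9% of the genes fitted by each tool. None passed the adjusted threshold, where DESeq2 gave an adjusted p for 4 of the 17. The floor held *MEFV* (pyrin), *CASP5* and *GBP5*, and the DNA sensor *AIM2* exceeded it in 1 library only. The highest levels per kilobase were those of the chaperones *HSP90AB1* (733) and *HSP90AA1* (214), the DNA sensor *IFI16* (29.8) and *DPP9*, a peptidase that restrains NLRP1 (14.4). The unadjusted threshold was met by *TXNIP*, a thioredoxin-binding protein described as an NLRP3 partner, which measured 4.42, 5.69 and 4.34 CPM in NC and 6.45, 6.69 and 6.64 in PON1-OE (log2FC 0.45, SE 0.154, adjusted p = 0.243). The groups of *TXNIP* did not overlap, nor did those of *HSP90AB1*, which lay lower in PON1-OE, where 16.1% of all genes did not overlap. The unadjusted threshold was also met by *IFI16* (log2FC 0.14, adjusted p = 0.278), *HSP90AA1* (-0.078, adjusted p = 0.446) and *HSP90AB1* (-0.068, adjusted p = 0.397). Both HSP90 genes have processed copies that make their counts uncertain. With the replicate block, the unadjusted p was 0.0706 for *HSP90AA1* and 0.0722 for *HSP90AB1*. The log2FC of *HSP90AA1* was -0.035 without PON1-OE replicate 2, at an edgeR unadjusted p of 0.263, and -0.12 without PON1-OE replicate 3. *HSP90AB1* had a p of 0.171 without PON1-OE replicate 1, and *IFI16* one of 0.0782 without PON1-OE replicate 3.

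Of 9 output genes of the inflammasome, 8 were tested and none met the unadjusted threshold in edgeR, DESeq2 or limma-voom. Closest were *GSDME* (log2FC 0.16, edgeR unadjusted p = 0.0526) and *IL1RN* (log2FC 0.24, edgeR unadjusted p = 0.0534). Of the 8 log2FC values, 5 were positive and 3 negative. *IL18* lay at 27.4 ± 1.68 and 27.6 ± 3.1 CPM, *GSDMD*, the pore former, at 26.9 ± 1.66 and 28.1 ± 0.542, and *IL1B* at 5.71 ± 1.38 and 5.2 ± 0.695 (SD, n = 3 each). The highest levels per kilobase were *NINJ1* (12.7), *IL18* (10.5), *GSDMD* (5.38) and *GSDME* (3.25), while *IL33* had no count. Substrates of CASP1 and CASP4 were thus transcribed in cells in which *NLRP3* had no count.

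All 10 partner genes of NLRC5 and NLRX1 were tested, and 1 met the unadjusted threshold in each of the 3 tools and 0 the adjusted one. DESeq2 gave an adjusted p for 6 of the 10. *RFX5*, the DNA-binding subunit through which NLRC5 reaches MHC class I promoters, measured 56.9, 54.1 and 59.4 CPM in NC and 51.1, 51.0 and 49.0 in PON1-OE, without overlap (log2FC -0.17, SE 0.0588, unadjusted p = 0.00808, adjusted p = 0.239, and unadjusted p = 0.0536 without NC replicate 3). The highest levels per kilobase were *TUFM* (101), *UQCRC2* (19.9) and *FASTKD5* (16.0), all mitochondrial proteins, and *RFX5* (11.7). Of the 16 other NLR receptors, 10 were at or under the floor and 3 were tested, namely *NLRP11*, *NAIP* and *CIITA*. None was called at either threshold in edgeR or limma-voom, nor at the unadjusted one in DESeq2. DESeq2 gave an adjusted p for 0 of the 3. The highest mean per kilobase was *NLRP11* (0.608), followed by *NLRC4* (0.153, detected but not tested), *NLRP12* (0.086) and *NAIP* (0.0641). The range of *NLRP11* (0.563 to 0.702) overlapped that of *CASP1* (0.406 to 0.95), so they could not be ordered. *NLRC4*, *NLRP12* and *NAIP* lay below *CASP1* in every library.

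**Figure D5:**
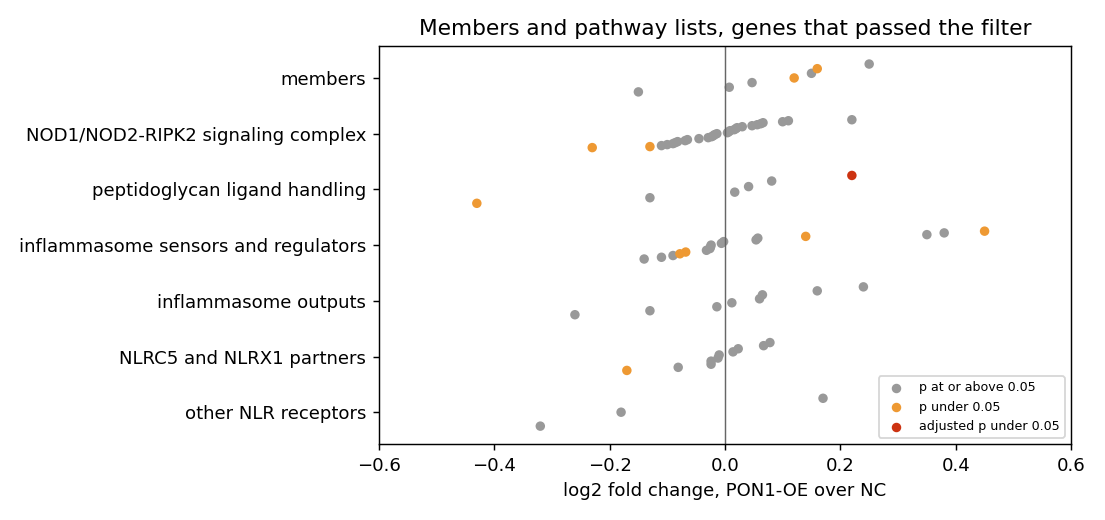
Log2 fold change of PON1-OE over NC for each of the 7 expressed members and the 73 tested genes of the 6 lists, 1 point per gene and 1 row per list, with colour marking an unadjusted p under 0.05 (orange) and an adjusted p under 0.05 (red). Points gather around 0 in every row, and the single red point is *ARHGEF2* at 0.22.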

How the data were processed

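HCCLM3 RNA-seq libraries were grouped by the treatment label. Poly(A) libraries (NEBNext Ultra, a kit that does not mark strand) were sequenced on a NovaSeq instrument. The study's paper names neither the kit nor the instrument. The values are estimated counts per gene as deposited by the authors, neither normalized nor pooled. The submitters' processing notes name Bowtie2 2.2.8, HISAT2, StringTie 1.3.1 and DESeq2. The genome build, the annotation and the counting tool are not given in the sources used here. Of all values, 10.5% were not whole, none of them in the 10 members, and counts were rounded.

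The quasi-likelihood test of edgeR 4.0.16 (R 4.3.3) was fitted over all 6 libraries with TMM scaling and filterByExpr, which kept 11958 genes, with Benjamini-Hochberg adjustment over all of them. Standard errors were derived from the F statistic. *NOD2* and *NLRP1* were fitted without the filter. CPM used TMM library sizes. Exon lengths, overlaps and coordinates came from GENCODE v29, which held 20126 of the 20381 genes. Library totals were 16506572, 17948383 and 17029542 (NC) and 16413730, 16153153 and 15706672 (PON1-OE). Replicates differed by more than sampling noise (chi-square per degree of freedom 2.11 to 4.11). Alternatives were RLE scaling, other filters, DESeq2 1.42.0, limma-voom 3.58.1, a replicate block, unrounded counts and leaving out each library. The tests were tried on simulated data.

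The rule for the members names symbols and uses no measured value, but the members and lists were chosen with earlier results of these data known. Named genes were all members, list genes at an unadjusted p under 0.05, the neighbours of *CASP1*, up to 4 genes per list with the highest level per kilobase, and *PON1*. *AIM2*, *MEFV*, *CASP5*, *GBP5*, *IL1B*, *IL1RN*, *IL33*, *CIITA* and the markers were named outside that rule, after their values were seen.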

Additional observations from a re-analysis of the deposited data

How the results depend on the processing

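No member passed an adjusted p of 0.05 in any of the 13 alternatives, with or without the fold threshold. The number at an unadjusted p under 0.05, 2 as reported, was 1 in DESeq2 and ranged from 1 to 3 when a library was left out (1 without NC replicate 1 or PON1-OE replicate 2). Among pathway list genes, leaving out a library gave 0 to 1 at the adjusted threshold and 2 to 10 at the unadjusted one, 4 without NC replicate 1 and 2 without NC replicate 3. Leaving out a library spanned log2FC of -0.032 to 0.12 for *NLRC5*, -0.02 to 0.046 for *NLRX1* and -0.031 to 0.52 for *CASP1*. The log2FC turned sign for *NLRC5* (-0.032 without PON1-OE replicate 3), *NLRX1* (-0.02, -0.0027 and -0.018 without NC replicate 1, NC replicate 2 and PON1-OE replicate 2) and *CASP1* (-0.031 without PON1-OE replicate 3), and the cause was not tested. Over all genes, 81 passed the adjusted threshold, against 177 without the filter, 122 in DESeq2, 40 with the replicate block and 11 to 103 without a library. At the unadjusted threshold, DESeq2 called 857 of 15542 genes fitted without the filter, and edgeR 1325 of 11958. DESeq2 gave an adjusted p for 4576 genes and, of the members, only for *RIPK2* (0.24).

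Same-numbered libraries did not deviate together (correlations 0.0301, -0.0567 and -0.0154), so the numbers were not taken as pairs. With the replicate block, 0 members passed the adjusted and 2 the unadjusted threshold, and 1 and 7 list genes did. *PON1* kept a log2FC of 6.66 with it. A merge of *CASP1* with genes that share its exons was not run, because none share one in GENCODE v29. Depth limits *NLRP1*, *NOD2* and *NLRP3*, and *CASP1* at 24 to 55 counts. A p that misses the threshold does not show equal levels.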
